A study of Mus musculus with 4 samples.

Results

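The mitochondrial respiratory chain was examined through the genes of its nuclear-encoded proteins in whole colons of mice with acute colitis. Members were the genes whose symbols start with Nduf, Uqcr, Cox4 to Cox8 or Atp5, together with Sdha, Sdhb, Sdhc and Sdhd. The rule found 93 members among 20832 genes named on the arrays, and 91 of them were well above background and were tested among 15560 genes. By complex the members comprised 7 core genes, 29 accessory genes and 8 assembly factors of complex I, 4 genes of complex II, 8 of complex III, 19 of complex IV and 17 of complex V. Ndufa4, once counted as a complex I subunit and since found in complex IV, was placed with complex IV. Its paralog Ndufa4l2 was kept apart. The subunits encoded by mitochondrial DNA were not analysed here.

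STAP-2-/- mice, which lack the adaptor protein STAP-2, were set against wild-type (WT) mice, all C57BL/6J and 14 weeks old. Every mouse had been given DSS (dextran sulfate sodium), which damages the lining of the colon, at 1.75% in the drinking water. The labels give its duration as 3 days in one place and as 7 days in another, and no untreated colon is used here. RNA of the entire colon was pooled from 3 mice for each 1-colour array, with 2 pools for STAP-2-/- and 2 for WT, each numbered 1 or 2 in its title. The labels call the pools biological replicates, do not name the mice in each, and do not say what the number stands for. The p-values for genotype therefore measure the spread between these pools.

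The respiratory chain passes electrons from NADH (complex I) and succinate (complex II) through ubiquinone to complex III, and through cytochrome c to complex IV, which reduces oxygen. The protons pumped on the way drive ATP synthesis by complex V. Absorptive cells of the colon surface draw much of their ATP from mitochondrial oxidation of butyrate, and the smooth muscle, immune and fat cells in a whole colon carry the same chain.

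Several complex IV subunits exist as isoforms, one in most cells and one restricted to heart, skeletal muscle, brown fat, testis or lung. The promoters below belong to members on which the results turn or show the motif described next, and are the 250 bases before the gene start, from RefSeq, assembly GRCm38.p6. They lie on the minus strand, at chr7:140900447-140900696 for Cox8b, chr19:7217617-7217866 for its widely expressed partner Cox8a and chr5:115348959-115349208 for Cox6a1. Capitals mark the only match found to any motif searched, which is an NRF-1 site read on both strands.
Cox8b: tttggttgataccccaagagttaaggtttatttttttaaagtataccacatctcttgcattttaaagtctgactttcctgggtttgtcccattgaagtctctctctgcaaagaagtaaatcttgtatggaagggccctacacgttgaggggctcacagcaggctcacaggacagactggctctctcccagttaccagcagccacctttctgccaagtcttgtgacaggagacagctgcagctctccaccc
Cox8a: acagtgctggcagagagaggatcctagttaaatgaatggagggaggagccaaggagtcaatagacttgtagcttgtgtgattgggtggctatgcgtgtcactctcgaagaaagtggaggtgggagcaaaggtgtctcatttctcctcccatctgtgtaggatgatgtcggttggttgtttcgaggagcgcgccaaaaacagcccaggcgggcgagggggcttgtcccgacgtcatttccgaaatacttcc
Cox6a1: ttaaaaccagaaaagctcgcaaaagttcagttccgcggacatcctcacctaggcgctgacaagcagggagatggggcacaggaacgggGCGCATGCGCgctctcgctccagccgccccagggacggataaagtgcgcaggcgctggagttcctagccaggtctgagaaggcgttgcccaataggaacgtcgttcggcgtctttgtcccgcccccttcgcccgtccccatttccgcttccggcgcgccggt

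NRF-1 is a transcription factor known for its sites in many respiratory chain promoters. Of the 93 members, 76 had a promoter in the table. The NRF-1 motif GCGCATGC, on either strand, occurred in 9 of these (11.8%), in 3.89% of the promoters of all tested genes and in 2.32% of all 27025 promoters. The 9 members were Ndufa8, Ndufa6, Ndufa11, Ndufaf4, Sdhb, Cox6a1, Atp5k, Atp5l and Atp5g2. The GABP or ETS motif CCGGAAGT was found for Uqcrh, Uqcr11 and Atp5h (3.95% of members against 5.06% of tested genes), the ERR motif TNAAGGTCA for Atp5g3 and Ndufb4 (2.63% of members against 0.714%), and the YY1 motif AANATGGCG for Ndufb11 (1.32% of members against 1.79%). With the 50 bases after the gene start included, the YY1 motif was found for 9 members (11.8%), against 4.48% of tested genes. In the 250 bases any of the motifs occurred in 15 of the 76 members and in 0 of 4 tissue-restricted isoforms with a promoter in the table. Of the widely expressed partners, 6 had a promoter there and 1 of these held a motif. It was Cox6a1, whose restricted isoform Cox6a2 had no promoter there, so it has no counterpart among the 4.

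Values below are log2 of the processed signal minus the 75th percentile of the array, so that 0 is the 75th percentile, and all differences are on that log2 scale. The percentile was a signal of 2280 and 2348 on the STAP-2-/- arrays and 2134 and 2215 on the WT arrays. Between 68.4% and 70.5% of spots lay well above background and no spot was saturated. Stap2, which the mutants lack, read -6.63 and -7.72 in STAP-2-/- colons, neither well above background, and 2.92 and 2.98 in WT colons, so that WT was at least 720.9-fold higher (limma adjusted p = 0.314). Of the tested members, 83 had a mean above the 75th percentile. Cox7b2 and Cox8c, isoforms known from testis, were not well above background on any array.

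Respiratory chain genes differed little between STAP-2-/- and WT colons. The median STAP-2-/- minus WT difference of the 91 tested members was -0.01, as it was over all genes tested, with 36 members higher and 55 lower. The middle 50% of the members spanned 0.072, against 0.232 for all genes. By the limma test with Benjamini-Hochberg adjustment over all 15560 genes, 0 members passed an adjusted p of 0.05 (0% of all genes tested passed), and at an unadjusted p under 0.05 there were 1 member and 325 of 15550 genes. Differences beyond 0.2 in either direction were seen in 6 members (6.59%), in 28.4% of all genes and in 17.2% of genes whose mean lay above the 75th percentile. STAP-2-/- arrays were both above WT arrays for 10 members (11.5% of all genes) and both below for 12 members (13.4% of all genes). With 1 array left out, the members' median ranged from -0.06 to 0.03, and the number of members lower in STAP-2-/- colons was 68 without STAP-2-/- 1, 33 without STAP-2-/- 2, 32 without WT 1 and 66 without WT 2.

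**Figure D1:**
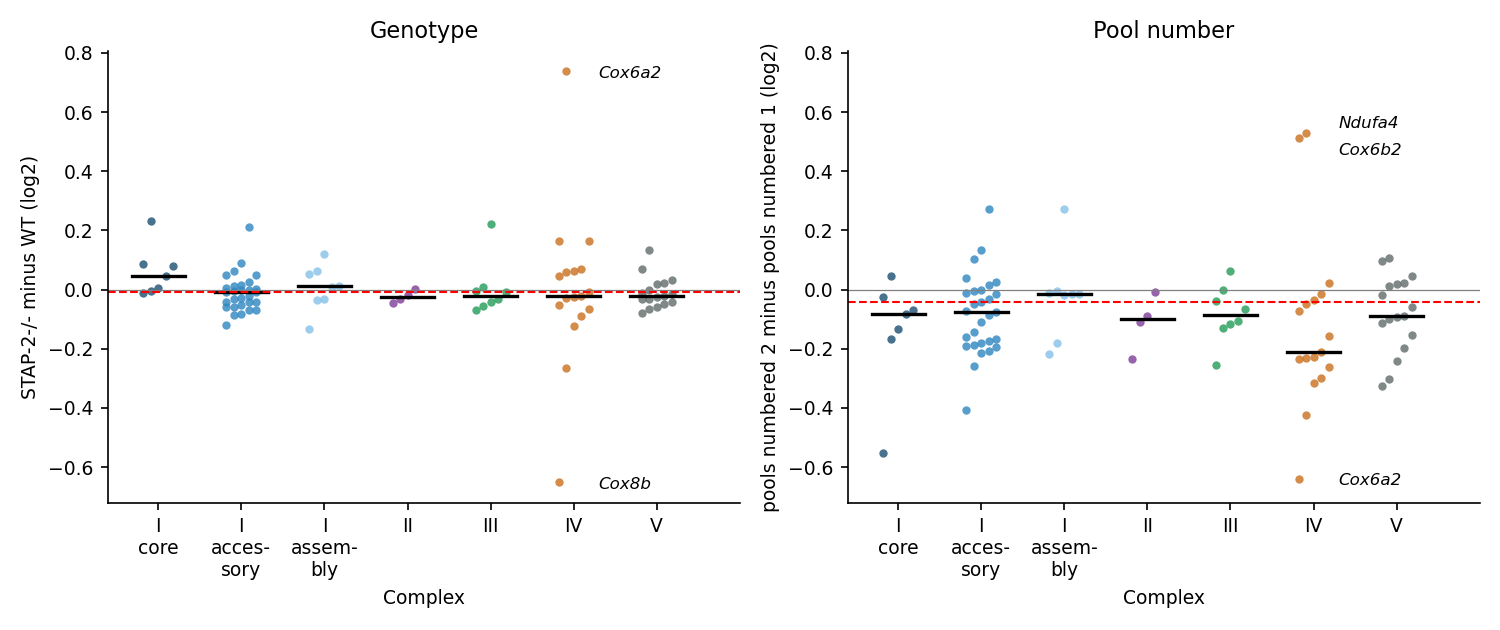
Log2 difference of each tested member by complex, with STAP-2-/- minus WT on the left and pools numbered 2 minus pools numbered 1 on the right. Points are genes, black bars the complex medians and the red dashed line the median of all genes tested. On the left the complex medians lie between -0.02 and 0.04, and the named complex IV isoforms Cox6a2 (0.74) and Cox8b (-0.65) stand apart. On the right complex IV has the lowest median (-0.21), lower than 0 under each of 6 scalings, while the medians of complexes III and V change sign under quantile normalization.

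The complexes had like medians between genotypes. The median was 0.04 for the complex I core, -0.01 for its accessory subunits, 0.01 for its assembly factors and -0.02 each for complexes II, III, IV and V. Under other scalings the assembly factors took the opposite sign with normexp background correction and complex III with quantile normalization. With 1 array left out, the median of every group changed sign, ranging from -0.09 to 0.06 for complex II and from -0.08 to 0.08 for complex IV.

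Within complex I, the core subunit Ndufs1, which carries iron-sulfur clusters of the NADH-oxidising arm, was at 4.29 and 4.24 in STAP-2-/- colons, against 4.32 and 4.23 in WT colons. Ndufv1, which binds NADH and the flavin, was at 5.09 and 4.96 in STAP-2-/- colons, against 5.09 and 4.95 in WT colons. For both the genotypes overlapped. Ndufs3, another core subunit, did not overlap, at 4.37 and 4.45 in STAP-2-/- colons against 4.32 and 4.33 in WT colons, a difference of 0.09. Among accessory subunits without overlap the largest difference was that of Ndufa11, a membrane-arm subunit, at 2.70 and 2.54 in STAP-2-/- colons against 2.54 and 2.28 in WT colons (0.21, SE 0.16). Its lower STAP-2-/- pool was level with its higher WT pool to 2 decimals. Ndufv3 (-0.09) and Ndufs5 (-0.06) were the accessory subunits furthest below WT without overlap. Of the assembly factors, which help to build complex I and are not part of it, Ndufaf3 differed by 0.12 and Ndufaf2 by -0.13.

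The succinate dehydrogenase genes of complex II overlapped between genotypes. Sdha, the flavoprotein, differed by -0.03, the iron-sulfur subunit Sdhb by 0.00, and the membrane anchors Sdhc and Sdhd by -0.05 and -0.02, each with an SE of 0.13 to 0.17. In complex III, Uqcrc1, a core protein, was at 3.19 and 3.17 in STAP-2-/- colons, against 3.06 and 2.87 in WT colons. Its groups did not overlap, with a difference of 0.22 (SE 0.14, limma adjusted p = 0.999996) that stayed between 0.13 and 0.32 over 13 alternatives. The other core protein, Uqcrc2, differed by -0.04 and the Rieske iron-sulfur protein Uqcrfs1 by -0.05, both with overlap, and the small subunit Uqcrq by -0.07 without overlap.

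The genotype differences of complex V ran from -0.08 to 0.13. The catalytic subunits Atp5a1 (alpha) and Atp5b (beta) differed by 0.03 and -0.01, the rotor stalk subunit Atp5c1 (gamma) by -0.02 and Atp5o, which links the stator to the catalytic head, by 0.02. Atp5d, the delta subunit of the rotor, was at 4.50 and 4.58 in STAP-2-/- colons, against 4.43 and 4.38 in WT colons, without overlap. Of the genes of the membrane ring subunit c, Atp5g1 (-0.07) and Atp5g2 (0.07) did not overlap and Atp5g3 (-0.04) did, and a further Atp5g2 probe gave -0.03.

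The members that differed most between genotypes were tissue-restricted isoforms of complex IV. Cox8b, the Cox8 isoform known in mouse from heart, skeletal muscle and brown fat, was at -1.48 and -1.71 in STAP-2-/- colons, against -0.80 and -1.09 in WT colons. Both STAP-2-/- pools lay below both WT pools. The difference was -0.65 (SE 0.18, limma unadjusted p = 0.0245, adjusted p = 0.999996), and it stayed negative, from -0.80 to -0.50, over 13 alternatives. Its partner Cox8a was at 7.16 and 7.13 in STAP-2-/- colons, against 7.16 and 7.16 in WT colons, a difference of -0.01.

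Cox6a2, the isoform of heart and skeletal muscle, lay near the lower end of the measurable range. It was at -3.99 and -4.63 in STAP-2-/- colons, against -4.73 and -5.37 in WT colons. Both STAP-2-/- pools lay above both WT pools, and the pools of each genotype lay 0.64 apart. The difference was 0.74 (SE 0.35, limma adjusted p = 0.999996). It was 0.31 with normexp background correction and 0.42 to 1.06 with 1 array left out. Its partner Cox6a1 overlapped, with a difference of -0.05. Cox7a1, also an isoform of heart and skeletal muscle, was at 4.08 and 3.37 in STAP-2-/- colons, against 3.63 and 3.49 in WT colons, so that 1 STAP-2-/- pool was higher and the other lower than both WT pools. Cox7a2, its partner, differed by -0.03. Cox6b2, known from testis, differed by 0.16 and Cox4i2, known from lung and from low oxygen, by 0.06, both with overlap, and their partners Cox6b1 and Cox4i1 by 0.07 and 0.05. Ndufa4 was at 3.43 and 4.17 in STAP-2-/- colons, against 3.91 and 4.23 in WT colons (-0.27, SE 0.31), and Ndufa4l2, known to rise in low oxygen, differed by -0.03. The widely expressed subunits Cox5a and Cox7c were lower without overlap on the probes used, by values of -0.07 and -0.09. The further Cox7c probes overlapped, at -0.03 and -0.01. Cox5b (-0.03) and Cox6c (-0.12) also overlapped.

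**Figure D2:**
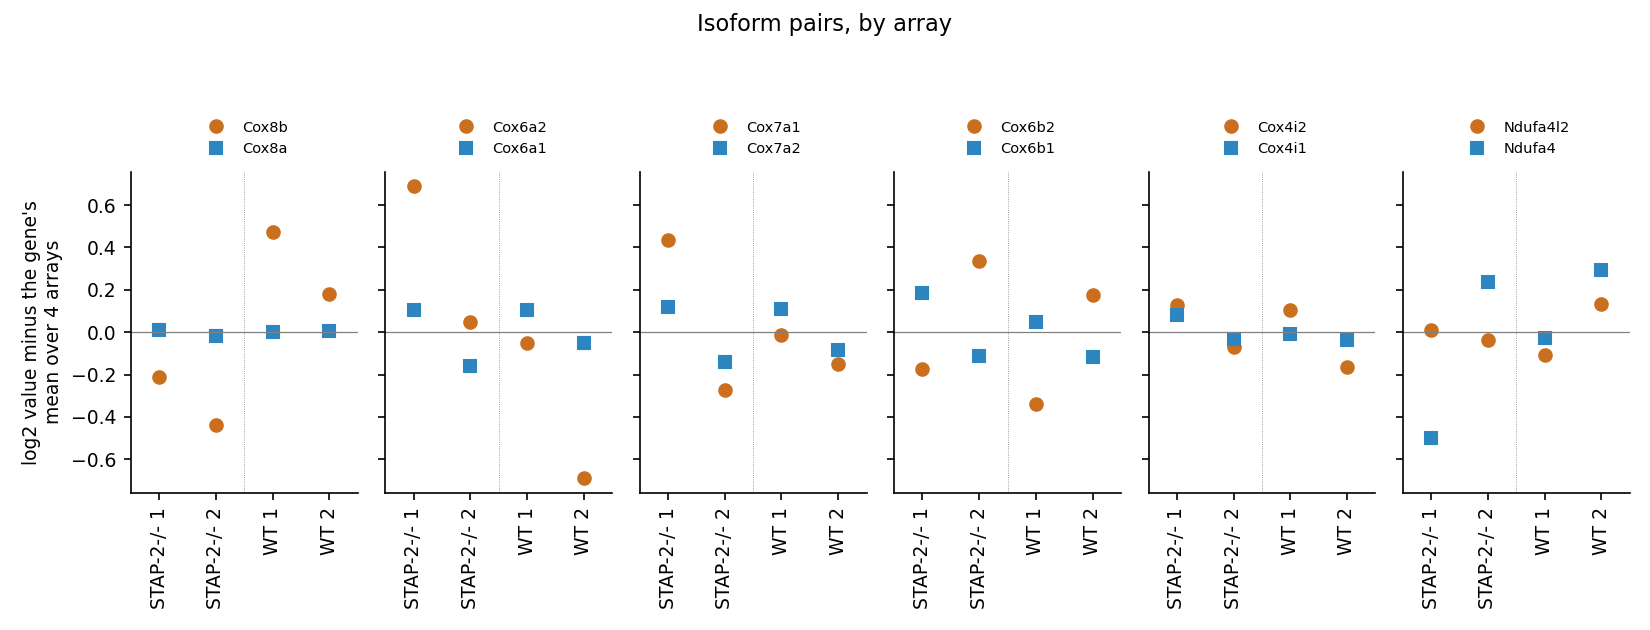
Log2 value of each isoform minus that gene's own mean over the 4 arrays, with the restricted isoform as circles and its widely expressed partner (in the last panel Ndufa4) as squares. The dotted line parts STAP-2-/- arrays, on the left, from WT arrays. Cox8b is below its mean on both STAP-2-/- arrays and above it on both WT arrays, while Cox8a stays within 0.02 of its mean.

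Most markers of fat cells were also lower in STAP-2-/- colons, none of them past the limma threshold. The summed level of 7 adipocyte markers, on the log2 scale, was 5.74 and 5.22 in STAP-2-/- colons, against 6.43 and 5.83 in WT colons, and the median difference of the 6 tested was -0.61. It was -0.71 between STAP-2-/- 1 and WT 1 and -0.47 between STAP-2-/- 2 and WT 2. The lipid-droplet protein Cidea, the fatty-acid carrier Fabp4 and adipsin (Cfd) differed by -0.40, -0.62 and -0.68, while the hormone Lep overlapped at 0.09. Of the 6 tested, 5 were lower, 3 of them without overlap (13.4% of all genes were lower without overlap). Between pools numbered 2 and pools numbered 1 the same 6 had a median of -0.68, with 3 lower without overlap (36.1% of all genes). Cox8b overlapped in that comparison, with a difference of -0.26 that ranged from -0.60 to 0.08 over 13 alternatives. Ucp1, the uncoupling protein that defines brown fat, was not well above background on any array. The part of fat cells in the Cox8b difference was not tested. In whole colon, fewer cells of a type and less RNA per cell cannot be told apart. Of 8 striated muscle markers, Myh1, Myh4 and Mylpf were not well above background on any array. The summed level was 1.102 and 0.981 in STAP-2-/- colons against 1.095 and 0.973 in WT colons. A sum weighs bright genes most, and only 1 of the 4 tested markers had a mean above the 75th percentile. The 4 tested differed by -1.07 to 0.04, 2 higher and 2 lower. All 9 colonic epithelial markers named on the arrays and all 6 smooth muscle markers were well above background on every array. The 6 smooth muscle markers were all lower in STAP-2-/- colons, 3 of them without overlap (13.4% of all genes), with a median difference of -0.15. The 9 epithelial markers had a median difference of 0.03, with 5 higher and 4 lower.

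Members, like all genes, spread more widely between the pool numbers than between the genotypes. The middle 50% spanned 0.183 for members and 0.437 for all genes. Pools numbered 2 were set against pools numbered 1 in a limma model with terms for genotype and number. Its p-values rest on how alike the pool difference was in STAP-2-/- and in WT, not on replicates of a number. The members' median number 2 minus number 1 difference was -0.08, against -0.04 for all genes, and 72 of 91 members were lower (79.1%, against 55.2% of all genes). That count depends on the scaling: 48 of 91 were lower under quantile normalization, 51 under median scaling, 58 with the percentile over detected probes, 66 with normexp and 67 in the authors' value table. In this comparison 0 members passed an adjusted p of 0.05 (0% of all genes tested passed), and at an unadjusted p under 0.05 there were 6 members and 3861 of 15550 genes. Pools numbered 2 were both below pools numbered 1 for 51 members (36.1% of all genes) and both above for 10 members (26.4% of all genes). Among the 6590 genes whose mean lay above the 75th percentile, 2639 were lower and 1586 higher without overlap. These counts without overlap are for the scaling used here and are not given for the others. Differences beyond 0.2 were seen in 26.4% of members and in 54.3% of all genes.

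The number goes with the place on the slide. The 4 arrays shared 1 slide and 1 scan, with WT 1 and STAP-2-/- 1 at positions 1 and 2, and WT 2 and STAP-2-/- 2 at positions 3 and 4. Pool number and slide position therefore cannot be told apart.

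The pool difference was set side by side in the 2 genotypes. Across the 91 members, the STAP-2-/- pool difference and the WT pool difference correlated with a Pearson r of 0.81, against 0.60 across all genes. It was 0.71 across genes whose mean lay above the 75th percentile and 0.83 across the mitochondrial ribosome genes. In the other lists of mitochondrial genes it ran from -0.01 to 0.89. These are genes of 4 arrays that share 1 slide, not independent replicates, so each correlation is a description. The sign was shared by 73 of 91 members and by 12018 of 15550 genes, a like share. The members' median was -0.08 between the STAP-2-/- pools, where 65 were lower in pool 2, and -0.09 between the WT pools, where 71 were lower.

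**Figure D3:**
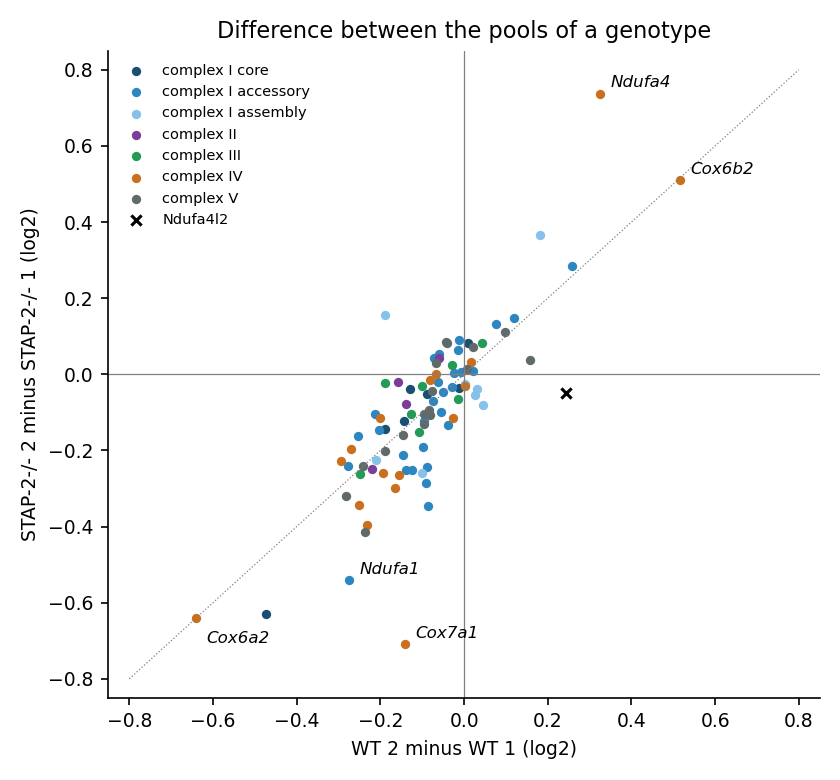
Difference between pool 2 and pool 1 of each tested member, within STAP-2-/- (vertical axis) and within WT (horizontal axis), both log2. Points are genes coloured by complex, and the dotted line marks equal differences. Cox6a2 lies at the lower left and Ndufa4 and Cox6b2 at the upper right, while Cox7a1 differs more between the STAP-2-/- pools (-0.71) than between the WT pools (-0.14).

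Among the complexes, complex IV had the lowest median between pool numbers. It was -0.21, with 14 of 17 tested genes lower, and stayed between -0.21 and -0.06 under 6 scalings. Without WT 1, where the genotype term has to be dropped, it was -0.12, with 12 of 17 genes lower. Relative to the median of all genes it was -0.17, and -0.07 under quantile normalization and -0.13 with normexp. The medians were -0.08 for the complex I core, -0.08 for the accessory subunits and -0.10 for complex II, lower than 0 under each of the 6 scalings. Complexes III (-0.09) and V (-0.09) turned to 0.0076 and 0.020 under quantile normalization. Without WT 1 the median of complex V was -0.05, and without STAP-2-/- 2 that of the complex I core was -0.14. The assembly factors (-0.02) were higher than 0 under quantile normalization, median scaling and the percentile over detected probes.

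**Figure D4:**
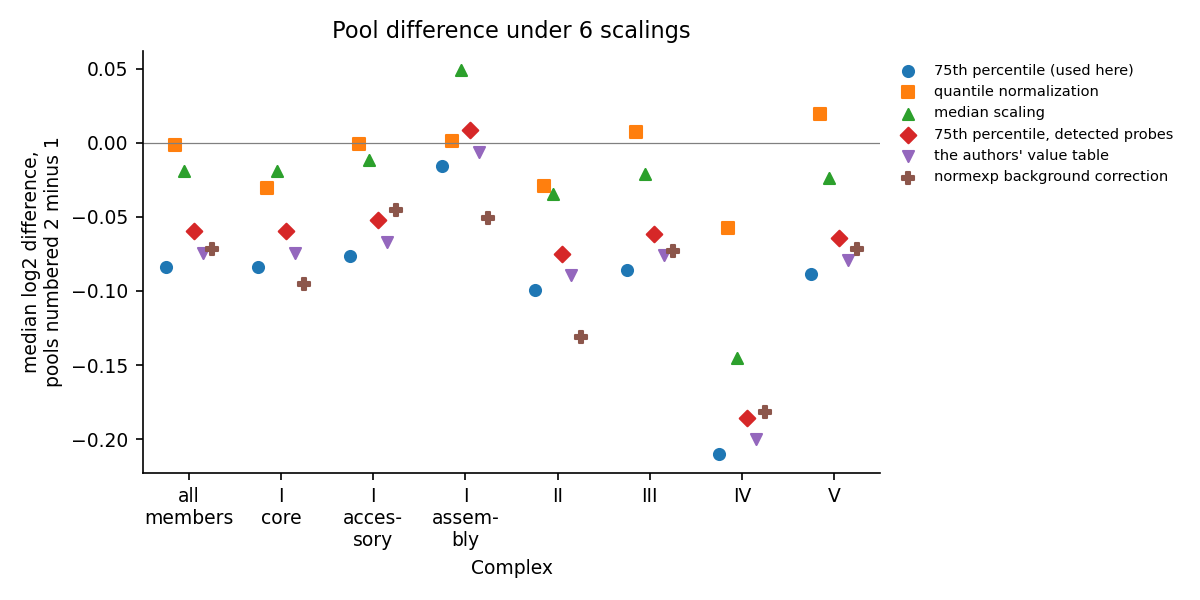
Median log2 difference, pools numbered 2 minus pools numbered 1, for all tested members and for each complex under 6 scalings of the arrays. Each marker shape is 1 scaling. Complex IV lies lowest under all of them and below 0 throughout, while the other groups move to within 0.05 of 0 under quantile normalization and the assembly factors, complex III and complex V pass above 0 there.

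In complex IV, Cox6a2 was at -4.63 in STAP-2-/- 2 and -5.37 in WT 2, against -3.99 in STAP-2-/- 1 and -4.73 in WT 1. The difference was -0.64 within each genotype (limma unadjusted p = 0.00608, adjusted p = 0.164). Cox6c, a small structural subunit, was at 5.45 in STAP-2-/- 2 and 5.66 in WT 2, against 5.85 in STAP-2-/- 1 and 5.89 in WT 1 (-0.31, SE 0.11). Cox7a1 differed by -0.42 (SE 0.19), and Cox7a2l, known for joining complexes III and IV into supercomplexes, by -0.30 (SE 0.10). All 3 Cox7a2l probes were lower in the pools numbered 2, at -0.30, -0.33 and -0.36. Some members went the other way. Ndufa4 was at 4.17 in STAP-2-/- 2 and 4.23 in WT 2, against 3.43 in STAP-2-/- 1 and 3.91 in WT 1 (0.53, SE 0.15, adjusted p = 0.192 by limma), and its difference lay between 0.29 and 0.77 over 13 alternatives. Cox6b2 was also higher, at -1.54 in STAP-2-/- 2 and -1.70 in WT 2, against -2.05 in STAP-2-/- 1 and -2.22 in WT 1 (0.51). The partners Cox6a1 (-0.21), Cox6b1 (-0.23) and Cox7a2 (-0.23) were lower in both genotypes, whereas Cox8a (-0.01) and Cox7b (-0.03) hardly differed.

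In complex I, Ndufa1, a small membrane subunit needed for assembly of the complex, was at 5.05 in STAP-2-/- 2 and 5.21 in WT 2, against 5.59 in STAP-2-/- 1 and 5.49 in WT 1 (-0.41). Among core subunits the differences were smaller for Ndufs7 (-0.17), Ndufv1 (-0.13) and Ndufs1 (-0.07). Ndufab1, the mitochondrial acyl carrier protein, went the other way at 0.27, as did the accessory subunit Ndufa2 at 0.13. Of the assembly factors, Ndufaf6 differed by 0.27, and Ndufaf8 and Ndufaf1 by -0.22 and -0.18.

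In complex II, Sdhd differed by -0.23, Sdhb by -0.11, Sdha by -0.09 and Sdhc by -0.01. In complex III the Rieske protein Uqcrfs1 was at 4.197 in STAP-2-/- 2 and 4.257 in WT 2, against 4.459 in STAP-2-/- 1 and 4.507 in WT 1 (-0.26, SE 0.09), beside -0.12 for Uqcrc2 and 0.06 for the small subunit Uqcr11. In complex V the differences parted by subunit. Atp5c1 was at 5.32 in STAP-2-/- 2 and 5.43 in WT 2, against 5.74 in STAP-2-/- 1 and 5.67 in WT 1 (-0.33), and Atp5a1 differed by -0.30. The 5 probes of Atp5l, the membrane subunit g, were all lower in the pools numbered 2, from -0.24 to -0.13. Atp5k, the membrane subunit e, and Atp5e, the epsilon subunit, were higher by 0.11 and 0.10, and Atp5o (0.01) overlapped.

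Cell type markers also differed between pool numbers, in both directions. The adipocyte markers had a median of -0.68, with Plin1, which coats lipid droplets, at -1.22. The pan-leukocyte gene Ptprc was at -0.62 in STAP-2-/- 2 and -1.05 in WT 2, against -2.10 in STAP-2-/- 1 and -1.95 in WT 1. The 6 leukocyte markers went both ways, 3 higher and 3 lower with a median of 0.05, and their summed level differed by -0.18. The 9 epithelial markers had a median of -0.14, 3 higher and 6 lower. Among them, Krt8 differed by -0.57 and Slc26a3, the chloride exchanger of surface colonocytes, by -1.12, while Car1 differed by 0.52 and Epcam by 0.50. Myh2, a myosin of fast muscle fibres, differed by -2.86. The 4 tested striated muscle markers had a median of -0.43, 1 higher and 3 lower, and the summed level of all 8 differed by -0.12. The part of these cells in the pool differences of the respiratory chain was not tested.

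Other mitochondrial genes were set beside the chain, and no gene of these lists passed the limma test in either comparison. The 15 regulators of mitochondrial genes had medians of 0.01 between genotypes and -0.05 between pool numbers. The coactivator Ppargc1a was at 0.73 in STAP-2-/- 2 and 0.70 in WT 2, against 1.25 in STAP-2-/- 1 and 1.25 in WT 1 (-0.54), and the nuclear receptor Esrra differed by -0.37. Tfam, which packages and transcribes mitochondrial DNA, was higher at 0.51. The electron carriers gave -0.16 for somatic cytochrome c (Cycs) and 0.31 for the testis form Cyct between genotypes. Cyct was well above background on 3 of the 4 arrays and lay near the lower end of the measurable range. Among 32 other assembly factors, Sco2, a copper chaperone of complex IV, was at 0.76 and 0.54 in STAP-2-/- colons, against 0.32 and 0.25 in WT colons (0.37, SE 0.15), without overlap. Between pool numbers Ecsit, an assembly factor of complex I, differed by -0.42 and Coa3, one of complex IV, by 0.37.

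Of the 13 citrate cycle genes, 9 were higher and 4 lower in STAP-2-/- colons, with a median of 0.05. Citrate synthase (Cs) differed by -0.46 between pool numbers. Of 8 carriers, 7 were lower in the pools numbered 2, with the outer-membrane channel Vdac1 at -0.66 and the phosphate carrier Slc25a3 at -0.42. The 77 tested genes of the mitochondrial ribosome had medians of 0.01 between genotypes and -0.01 between pool numbers, with 37 higher and 40 lower in the pools numbered 2.

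Probes of the same member were compared with each other. Of 124 probes for the 93 members, 30 further detected probes were set beside the one used, and the median gap was 0.031 between genotypes and 0.048 between pool numbers. The widest gap was that of Ndufb11, whose dim second probe differed by -0.82 between pool numbers, against -0.11 for the probe used. Both further probes of Cox7c, at -0.17 and -0.16, were lower in the pools numbered 2, where the probe used gave 0.02. The further probe had the opposite sign in 7 of the 30 cases for genotype and in 8 for pool number. Among them, Ndufv3 gave -0.09 and 0.09 and Uqcrb -0.03 and 0.05 for genotype, and Sdhb gave -0.11 and 0.07 and Atp5j2 -0.09 and 0.10 for pool number. Uqcr10 kept its sign for pool number, at -0.07 for the probe used and -0.36 for the dimmest of its probes.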

How the data were processed

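Per the labels' protocols, total RNA of each colon pool was labelled with Cy3 and put on its own array. Per the file headers, the deposited scanner files give each spot's processed intensity, background-subtracted and not normalized between arrays, with median spot and background intensities. Their flags per spot are other deposited values. They were made with Agilent Feature Extraction 10.7.1.1, per the submitters' processing notes. The authors' value table holds a ratio, the processed signal over its 75th percentile on a linear scale. Up to 1 scale factor per array, it matched the scanner files within 5% for 100% of the probes compared. Only values above 0.1 were compared, 19053 to 19295 probes per array. The column medians of the value table were 0.084 and 0.091 for STAP-2-/- and 0.087 and 0.090 for WT. It was used as an alternative.

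Control spots were dropped, outlier-flagged spots set missing and the spots of a probe averaged. Of 39429 probes, 27427 were named by RefSeq accession without version (table of GRCm38.p6; its gene coordinates are printed only with promoters). The probe with the highest mean stood for a gene. A gene was tested if well above background on both arrays of a genotype, an array counting as such unless most of the probe's unflagged spots were not. In R 4.3.3, differences were fitted over all genes by lmFit and eBayes of limma 3.58.1. P-values were adjusted by Benjamini-Hochberg over all tested genes, with 0.05 as the threshold. The fits were tested on simulated data. Python 3.11.15 was used to read and draw.

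Members and lists were chosen with earlier results of these data known. Named were core subunits, tissue-restricted isoforms with partners, up to 2 members per complex and direction with the largest difference without overlap, probes of a member that disagreed, and up to 3 genes per other list with the smallest unadjusted p. Cox7a2l and Atp5l, which have several probes, Atp5g3, Ucp1 and Lep were named after their values were seen. Alternatives were other scalings, normexp on median spot intensity with an offset of 50, the authors' value table, other filters and probe rules, a trend with robust fit, the replicate number as a block and leaving out each array. The values of 1 member are not reported here. Precision is limited by having 2 arrays per genotype.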

Additional observations from a re-analysis of the deposited data

How the results depend on the processing

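In either comparison no member passed the threshold under any of 15 alternatives. For genotype, 9 of 840 values of 56 named genes moved by more than the spread between pools. Leaving out 1 array changed the sign of the genotype difference of 13 to 18 of the 56. The count of genes called for genotype was 1 with normexp, which was Stap2, and that for pool number ranged from 0 to 1 with 1 array left out. That gene was Six2, without WT 1 (adjusted p = 0.0356 by limma), where STAP-2-/- 1 alone stands for number 1 and is assumed to vary like the other pools. All pool-number fits without 1 array also lack the genotype term, since 3 arrays leave no degrees of freedom with it. With the replicate number as a block, genotype again called 0 genes, with 1040 genes and 2 members at an unadjusted p under 0.05, Cox6a2 and Cox8b (both adjusted p = 0.700 by limma). Same-numbered pools deviated together from their genotype means (r = 0.60 across 15550 genes). With 2 pools per genotype this is the same correlation as that of the pool differences given above, not a further observation. The 2 pairs and the labels do not establish a pairing. For genotype, the complex III median was 0.00062 with quantile normalization, -0.012 with normexp, -0.0048 with the mean of a gene's probes and -0.061 to 0.033 with 1 array left out, and the complex I core -0.026 to 0.082. For pool number, the members' median was -0.0012 with quantile normalization, -0.019 with median scaling and -0.060 with the percentile over detected probes. Quantile normalization gave -0.029 for complex II, 0.0076 for III, -0.057 for IV and 0.020 for V. Median scaling gave -0.034 for complex II, -0.021 for III, -0.145 for IV, -0.024 for V and 0.049 for the assembly factors. Complex III gave -0.061 with the detected percentile, -0.076 in the value table, -0.073 with normexp and -0.110 with the probe mean, and complex II -0.131 with normexp and -0.055 with the probe mean. With 1 array left out, the pool-number medians ranged from -0.131 to -0.067 for complex II, -0.091 to -0.059 for complex III, -0.193 to -0.122 for complex IV and -0.101 to -0.051 for complex V. The causes were not tested. Signal over background limits the dim members: with normexp, Cox6a2 differed by 0.31 between genotypes, against 0.74.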
